A study of Homo sapiens with 12 samples.

Results

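MDA-MB-231 genes silent in control cells are genes with no read in either control library and reads after transit through a constriction. They were selected on read counts: of the 381 genes that the authors listed for MDA-MB-231 cells, 63 had 0 reads in both control libraries, and 45 of these remained after genes of the biotype processed_pseudogene and genes named LINC or -AS were left out. The 18 genes left out were 16 of that biotype and 2 genes named -AS; AL449283.1, of the separate biotype transcribed_processed_pseudogene, stayed among the 45. Because the counts of this contrast chose the genes, their values are a description and carry no test. The 3 tables of the study together list 3090 genes.

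The study sequenced poly-A enriched RNA of 3 human breast cell lines, with 2 biological replicates per group and 12 libraries in all. The MDA-MB-231 line is derived from a triple-negative breast cancer, LM2 is a lung-metastatic subline of it, and MCF-10A is a non-tumorigenic breast epithelial line. Cells of the constriction groups had transited channels with a 5 by 5 µm cross-section and a length of 150 µm under a driving pressure of 7 to 33 cmH2O, and cells pooled from several chips made 1 library. Control cells of the same line had not transited. The study lists far less total RNA for the MDA-MB-231 constriction samples than for their controls, in both replicates. Transit and RNA amount therefore cannot be told apart in this contrast, and an effect of RNA amount on the counts was not tested. The MDA-MB-231 libraries had totals of 47401785 and 49684035 reads after transit (replicates 1 and 2) and 37214886 and 53584754 in control, as recovered from the deposited counts, FPKM and gene lengths.

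Many short non-coding RNA genes and antisense genes lie inside the introns of longer genes. MicroRNA hairpins are often cut from the transcripts of such host genes, and the U2, U6 and 7SL RNAs have many diverged copies scattered over the genome. TEC is a GENCODE class for transcribed regions that still await experimental support.

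Among the 45 genes were 9 small RNA genes: 3 microRNA hairpins, 3 snRNA genes, 2 snoRNA genes and 1 misc_RNA gene. The copy of U2 RNA is shown because its sequence tells how far it is from the abundant RNA it resembles. Capitals mark bases that differ from, or have no partner in, RNU2-1 in a global alignment. The sequence is from GENCODE v29 on GRCh38 and runs 5′ to 3′ on the strand of the gene, chr9:2162763-2162953 (- strand).
RNU2-25P: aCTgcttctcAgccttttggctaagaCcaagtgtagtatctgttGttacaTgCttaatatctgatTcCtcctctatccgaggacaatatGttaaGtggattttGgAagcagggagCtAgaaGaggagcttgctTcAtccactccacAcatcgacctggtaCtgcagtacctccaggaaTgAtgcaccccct

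RNU2-25P was identical to RNU2-1 at 169 of 192 aligned positions (88.0%), and RNU2-1 was not in the MDA-MB-231 table. The 2 snoRNA genes were further from their relatives: RF00156 matched SNORA70 at 70.8% of aligned positions and SNORA74D matched SNORA74A at 61.1%.

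For the 3 microRNA genes, RefSeq (GRCh38.p14) gave 3 mature sequences, shown with the seed, bases 2 to 8, in capitals. They lie at chr2:111321061-111321082 (- strand), chr6:57390180-57390202 (+ strand) and chr12:108836923-108836946 (- strand), in the order printed.
hsa-miR-4435: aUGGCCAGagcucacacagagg
hsa-miR-548u: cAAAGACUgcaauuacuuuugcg
hsa-miR-619-3p: gACCUGGAcauguuugugcccagu
The 3 seeds differ from each other. The reads counted here came from fragmented poly-A RNA and fell on the hairpin genes, so they do not measure the mature microRNAs.

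All 45 genes had 0 reads in control 1 and 0 reads in control 2. In constriction 1 they had 0 to 36 reads (median 13), and in constriction 2 they had 0 to 28 reads (median 8). The sum over both constriction libraries ran from 17 to 45 reads with a median of 22. The groups did not overlap for 41 genes, whereas 4 genes had 0 reads in 1 constriction library as well; over the table, both constriction libraries were above both control libraries for 236 of 381 genes (61.9%). In this contrast 1 of 381 listed genes (0.262%) passed edgeR's quasi-likelihood test without a block. With the replicate number as a block in a paired fit, 86 of 381 passed, 1 of them among the 45. Nothing is read from these shares because the rule used these libraries.

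The limit that 0 counted reads sets was taken as 3 reads per library, equal to a normalised count of 3.81 in control 1 and 2.58 in control 2 (mean 3.19), for counting error only. Against 3 reads in each control library, the mean normalised count after transit was at least 2.50-fold higher for the lowest gene and at least 6.65-fold higher for the highest, with a median bound of 3.28. In these folds and those below, "at least" refers to the control side alone. The mean after transit entered as observed, without its counting error or the spread of its replicates. These bounds are small because the reads are few. For some genes they fall below 1 when 1 constriction library is left out, OMD, AC012309.1, AL022323.3, SNORA74D and RF00026 among them. For genes with reads in only 1 constriction library, such as MIR548U, they fall to 0 without that library.

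**Figure D1:**
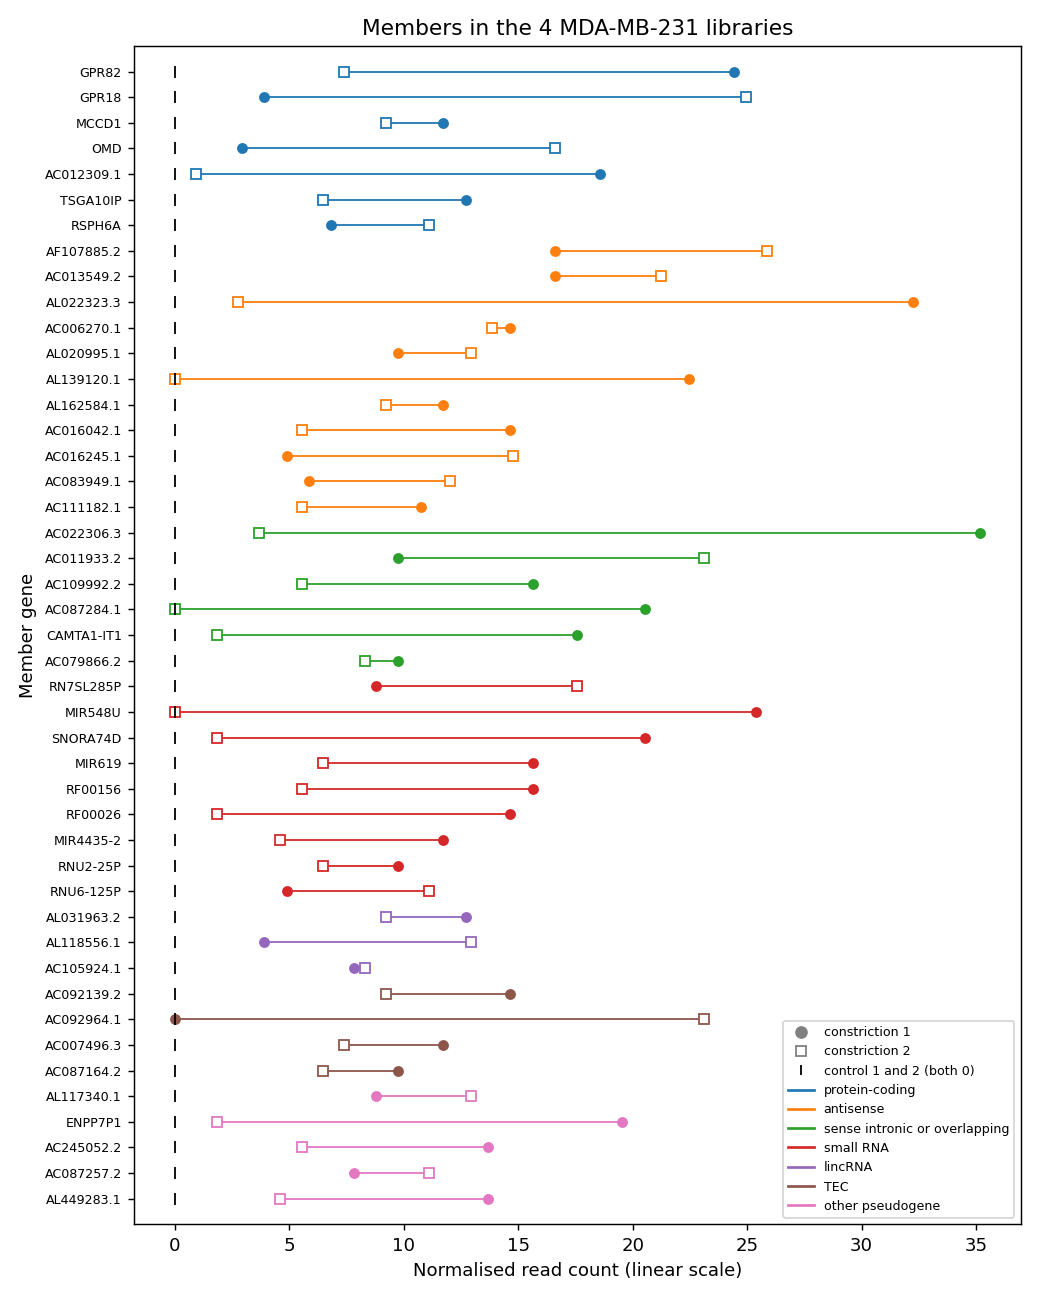
Normalised read count (x axis, linear) of each of the 45 genes (y axis, coloured by biotype group) in constriction 1 (filled circles), constriction 2 (open squares) and both controls (black ticks at 0); a line joins the constriction libraries of a gene. Every control value is 0, and the means after transit run from 7.99 to 21.2.

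The 7 protein-coding genes included GPR82 and GPR18, both class A G-protein coupled receptors. GPR82 had 25 reads in constriction 1, 8 in constriction 2 and 0 in each control library, a mean normalised count of 15.9 ± 12.05 (SD, n = 2) after transit and at least 4.98-fold higher than 3 reads per control library. GPR18 had 4 and 27 constriction reads with 0 in each control library, a mean of 14.4 ± 14.9 and at least 4.52-fold higher. The 2 receptors were high in opposite constriction libraries. Leaving out 1 constriction library moved the bound of GPR82 to 2.31 (without constriction 1) or 7.65 (without constriction 2) and that of GPR18 to 7.81 or 1.22.

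OMD, which encodes osteomodulin, a small leucine-rich proteoglycan of bone matrix, drew 3 reads in constriction 1, 18 in constriction 2 and 0 in each control library (9.78 ± 9.69, at least 3.06-fold higher). MCCD1, a mitochondrial coiled-coil protein gene, drew 12 reads in constriction 1, 10 in constriction 2 and 0 in each control library (10.5 ± 1.76, at least 3.28-fold higher). Without constriction 2 the bound of OMD was 0.918, below 1, and without constriction 1 it was 5.21. Constriction 2 was the higher library for OMD, and the constriction libraries were close for MCCD1.

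TSGA10IP drew 13 reads in constriction 1, 7 in constriction 2 and 0 in each control library (9.58 ± 4.41, at least 3.002-fold higher). RSPH6A, a radial spoke protein gene of motile axonemes, drew 7 reads in constriction 1, 12 in constriction 2 and 0 in each control library (8.96 ± 3.002, at least 2.81-fold higher). AC012309.1 drew 19 reads in constriction 1, 1 in constriction 2 and 0 in each control library (9.74 ± 12.5, at least 3.05-fold higher). For the first pair of these genes both constriction libraries held at least 7 reads, while AC012309.1 rested on constriction 1: its bound was 0.289 without that library and 5.81 without constriction 2.

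The protein-coding genes lay at chrX:41724155-41730135 (GPR82, + strand), chr13:99254714-99261744 (GPR18, - strand), chr6:31528717-31530232 (MCCD1, + strand), chr9:92414245-92424461 (OMD, - strand), chr19:37093019-37210512 (AC012309.1, - strand), chr11:65945445-65959963 (TSGA10IP, + strand) and chr19:45795710-45815319 (RSPH6A, - strand) on GRCh38. AC012309.1 shared 748 exonic bases with ZNF585A and 762 with ZNF585B on the same strand, so reads of these genes may not be separable.

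The gene with the highest mean after transit was AF107885.2, an antisense gene with 17 and 28 reads (21.2 ± 6.54) and 0 and 0 in control. AC022306.3, a sense intronic or overlapping gene, had 36 and 4 reads (19.4 ± 22.3) and 0 and 0 in control. AC013549.2, an antisense gene, had 17 and 23 reads (18.9 ± 3.28) and 0 and 0 in control. Of these, AF107885.2 and AC013549.2 were high in both constriction libraries, and AC022306.3 was high in constriction 1.

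AL022323.3, an antisense gene, had 33 and 3 reads (17.5 ± 20.8) and 0 and 0 in control. AC011933.2, a sense intronic or overlapping gene, had 10 and 25 reads (16.4 ± 9.42) and 0 and 0 in control. AC006270.1, an antisense gene, had 15 and 15 reads (14.3 ± 0.566) and 0 and 0 in control. The constriction libraries differed most for AL022323.3 and least for AC006270.1. Against 3 reads per control library, the bound of AL022323.3 was 5.48 with both constriction libraries and 0.868 without constriction 1.

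RN7SL285P drew 9 reads in constriction 1, 19 in constriction 2 (13.2 ± 6.19) and 0 in each control library. The other 7SL genes of the table, named here after their values were seen, were also higher after transit: RN7SL2 had 3533 and 2662 reads against 180 and 190 in control, RN7SL3 had 69 and 58 against 4 and 4, RN7SL431P had 40 and 22 against 3 and 7, and RN7SL181P had 41 and 11 against 2 and 5. Near-identical copies can exchange reads, so the values of single 7SL copies are uncertain. RN7SL2 was the gene that passed edgeR's quasi-likelihood test (Benjamini-Hochberg adjusted p = 0.00845), and this call was lost when either constriction library was left out. Such a fit holds 1 constriction library, so only the control libraries give its spread. The normalised counts of RN7SL2 were 3452 and 2459 after transit against 228 and 163 in control. The test estimated its spread from the listed genes alone, which the authors had selected in these same libraries. Nothing is therefore read from the p-value of RN7SL2. With the replicate number as a block in a paired fit, 86 genes passed and 1 of them was among the 45.

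Without the block and with adjustment over 23976 genes, none of the 45 genes passed edgeR's test, where all 45 and 358 of the 381 listed genes had an unadjusted p under 0.05; adjusted over the 381 listed genes alone, 354 passed, all 45 among them. DESeq2 called 9 listed genes and 0 of the 45, with 291 listed genes and 32 of the 45 at an unadjusted p under 0.05. Limma on log2(normalised count + 1) called 0 listed genes, with 245 and 37 at an unadjusted p under 0.05. The authors' table holds only genes past their own threshold in these libraries, and the same libraries chose the 45, so nothing is read from these counts. The study states that threshold as a DESeq2 adjusted p of at most 0.05. Some MCF-10A genes that it prints as dysregulated have a higher adjusted p. The listed genes are therefore not taken here as having passed an adjusted threshold.

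Of the 45 genes, 41 had reads in both constriction libraries, 36 had at least 3 reads in each and 9 had at least 10 reads in each. MIR548U (26 and 0 reads), AL139120.1 (23 and 0) and AC087284.1 (21 and 0) had reads only in constriction 1, and AC092964.1 (0 and 25) only in constriction 2. Without that 1 library each of these 4 genes would have no read in any MDA-MB-231 library.

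Among the 41 genes with reads in both, the normalised counts of the constriction libraries were within 2-fold for 19, between 2- and 5-fold apart for 13 and over 5-fold apart for 9, with a median of 2.27-fold. The highest ratios of constriction 1 to constriction 2 were 20.1 for AC012309.1 (95% counting interval 3.19 to 835, exact binomial), 11.6 for AL022323.3 (3.65 to 59.3) and 11.1 for SNORA74D (21 and 2 reads, 2.71 to 97.7). The lowest were 0.157 for GPR18 (0.0398 to 0.450), 0.176 for OMD (0.0333 to 0.604) and 0.302 for AL118556.1 (4 and 14 reads, 0.0724 to 0.962). These 6 genes were picked as the extremes, so their intervals are a description of how uneven the constriction libraries could be.

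Constriction 1 had the higher normalised count for 29 of the 45 genes and constriction 2 for 16, and the 45 genes summed to 615 reads in constriction 1 and 445 in constriction 2. Of the 9 small RNA genes, 7 were higher in constriction 1. The other listed genes higher after transit (155 genes, same name and biotype filter) had a median of 228 reads, and 124 of them were within 2-fold. Among the 24 of these with sums in the same range of 17 to 45 reads, 12 were within 2-fold and 4 were over 5-fold apart, with a median of 1.97-fold. The 25 listed genes with 0 reads in both constriction libraries, under the same filter, had a median of 17 control reads; all 25 had reads in both control libraries, 18 were within 2-fold and 1 was over 5-fold apart, with a median of 1.36-fold. No test was made.

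**Figure D2:**
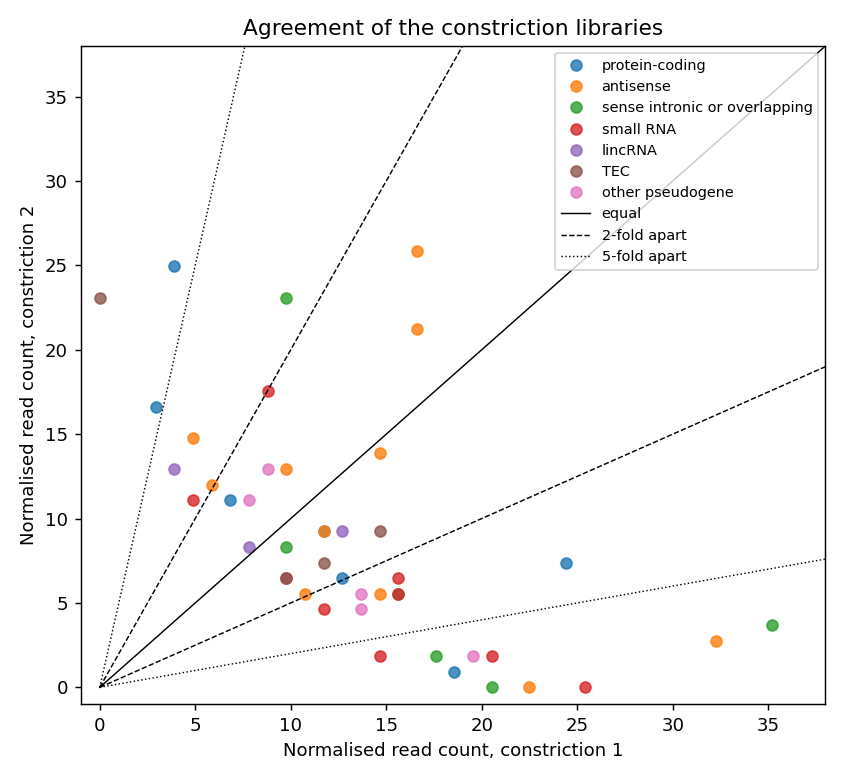
Normalised read count of the 45 genes in constriction 1 (x axis) against constriction 2 (y axis), both linear and coloured by biotype group, with lines for equal values and for 2- and 5-fold differences; some points coincide. Of the 45 genes, 19 lie within the 2-fold lines, and 13 lie outside the 5-fold lines, among them the 4 genes at 0 on 1 axis.

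By biotype, 11 of the 45 genes were antisense (24.4%), 9 were small RNA genes (20.0%), 7 were protein-coding (15.6%), 6 were sense intronic or sense overlapping (13.3%), 5 were pseudogenes (11.1%; 3 unprocessed, 1 transcribed unprocessed and 1 transcribed processed), 4 were TEC (8.89%) and 3 were lincRNA (6.67%). Of the 155 other genes higher after transit, 49.7% were protein-coding and 3.23% were small RNA genes. Of the 25 genes with the mirrored pattern, 0 reads in both constriction libraries under the same filter, 40% were protein-coding and 8% small RNA genes. No test was made, since genes are not replicates.

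**Figure D3:**
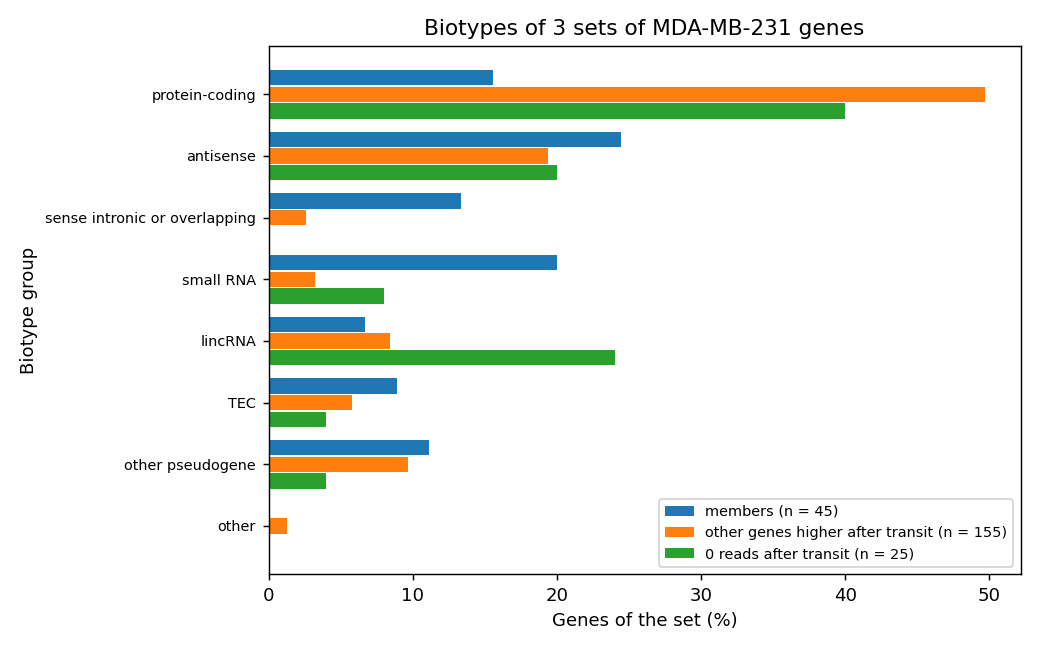
Share of genes (x axis, percent) in each biotype group (y axis) for the 45 genes silent in control (called members), the 155 other listed genes higher after transit and the 25 listed genes with 0 reads after transit. The protein-coding share is 15.6% for the 45 genes, 49.7% for the other higher genes and 40% for the genes with 0 reads after transit.

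The 45 genes were short, with a median length of 955 bases (74 to 6449), against 3275 bases for the other higher genes and 1512 bases for the genes with 0 reads after transit. Per length, the small RNA genes had the highest levels: their mean FPKM after transit ran from 0.921 to 3.39 (median 1.71), whereas the protein-coding genes had 0.0764 to 0.238 (median 0.103) and the antisense genes 0.0339 to 0.840 (median 0.205). The FPKM of the small RNA genes rest on 17 to 28 reads each.

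In position, 41 of the 45 genes (91.1%) lay within or over another annotated gene, on either strand, as did 127 of the 155 other higher genes (81.9%), 56% of the genes with 0 reads after transit and 63.2% of all annotated genes under the same filter. For 30 genes (66.7%) the overlap held no shared exonic base, for 11 (24.4%) it did, and 4 genes (AL031963.2, TSGA10IP, RSPH6A and AC105924.1) overlapped no other gene. The share with overlap but no shared exonic base was 38.1% among the other higher genes, 28% among the genes with 0 reads after transit and 29.6% over all 45408 annotated genes under the same filter.

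Antisense and sense intronic or overlapping genes are placed beside another gene by their definition. Among the other 28 genes, 19 (67.9%) overlapped a gene without a shared exonic base, against 34.7% of 121 other higher genes, 30% of 20 genes with 0 reads after transit and 27.7% of 39839 annotated genes. All 9 small RNA genes lay inside another gene, as did 4 of the 5 small RNA genes (80%) among the other higher genes and 68.9% of annotated small RNA genes. Of the 7 protein-coding genes, 3 lay inside another protein-coding gene, against 12 of 77 (15.6%) among the other higher genes and 5.38% of annotated protein-coding genes. By overlap without a shared exonic base, protein-coding genes had 42.9% against 28.6% of the other higher genes, and antisense genes 54.5% against 50%. The lincRNA genes went the other way, with 0 of 3 against 5 of 13. These shares are descriptions with no test.

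**Figure D4:**
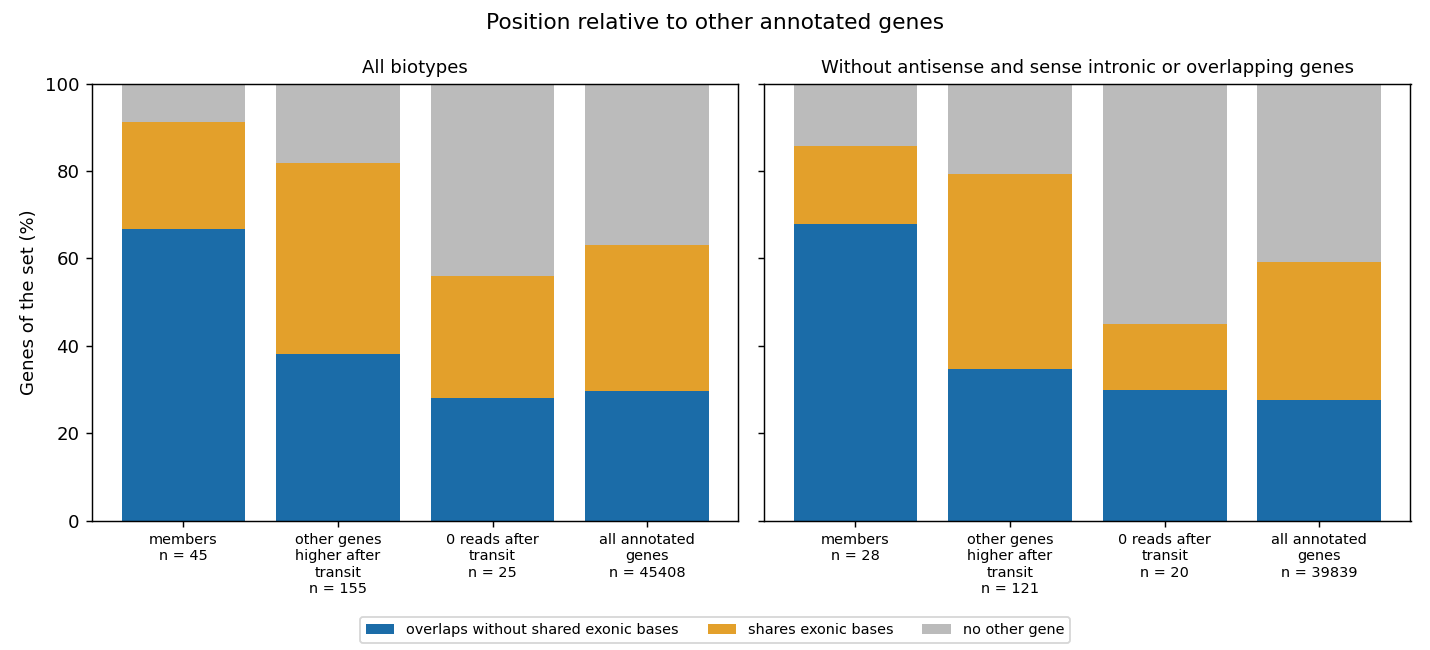
Share of genes (y axis, percent) that overlap another annotated gene without shared exonic bases, share exonic bases with one or overlap none, for the 45 genes (members) and 3 comparison sets, over all biotypes (left) and without antisense and sense intronic or overlapping genes (right). The lowest segment reaches 66.7% for the 45 genes and 38.1% for the other higher genes on the left, and 67.9% and 34.7% on the right.

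Counted by host, also 30 genes, not all of them the same ones, lay inside a protein-coding gene with which they shared no exonic base, that is, in its introns. Of these, 17 were on the opposite strand, 11 on the same strand and 2 had hosts on both. The distance to the nearest exon of the host ran from 30 to 97560 bases with a median of 6742, and was under 1000 bases for 4 genes. The sources used here do not state whether libraries or counting kept the strand, so reads of a gene, of an overlapping partner and of unspliced host RNA cannot be told apart.

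GPR82 lay in CASK, GPR18 in UBAC2 and OMD in CENPP, each on the opposite strand and 9249, 10090 and 34380 bases from the nearest host exon. MIR619 lay in SSH1, MIR548U in PRIM2 and MIR4435-2 in its host transcript MIR4435-2HG, each on the same strand. AL117340.1, a pseudogene with 9 and 14 constriction reads and 0 in each control library, lay in ZEB1 on the opposite strand; ZEB1 encodes a transcription factor of the mesenchymal state and was not in the table. Of the 57 overlapped genes, ST3GAL3 was the only one that the MDA-MB-231 table listed.

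ST3GAL3, a sialyltransferase gene, holds the U6 copy RF00026 in an intron on the same strand. RF00026 drew 15 reads in constriction 1, 2 in constriction 2 and 0 in each control library, and ST3GAL3 drew 234 and 227 constriction reads against 98 and 155 control reads. Both were higher after transit, but RF00026 was high in constriction 1 while ST3GAL3 was similar in both constriction libraries.

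CENPP also holds OGN and ECM2, named here after their values were seen, which encode matrix proteins and lie within 100 kb of OMD. OGN had 39 and 24 reads after transit against 1 and 5 in control, and ECM2 had 20 and 19 against 2 and 1. With OMD at 3 and 18 against 0 and 0, the 3 listed genes of this stretch had higher read counts after transit; the rule fixed the control counts of OMD at 0, and the table lists only genes past the authors' threshold, so nothing further is read from this.

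The 45 genes were spread over many chromosomes, with at most 5 on any (chromosomes 1 and 17). No member of the 45 lay within 100 kb of another: the closest, AL118556.1 and RF00156 on chromosome 14, were 787348 bases apart. Searched in the annotated transcripts on the gene's own strand, the motif AAAAAAAAAA (a run of 10 A) occurred in 6 of the 45 genes (13.3%), against 31.0% of the other higher genes and 24.8% of all 302 listed genes under the filter. The 45 genes are shorter and differ in class. Within protein-coding genes the motif was in 3 of 7 (42.9%) against 41.6% of the other higher genes, and within small RNA genes in 0% of both sets. Within antisense genes it was in 18.2% against 26.7%, and within lincRNA genes in 0% against 15.4%. TEC genes had it in 0% against 22.2%, sense intronic or overlapping genes in 0% against 50% and pseudogenes in 20% against 6.67%. The classes hold few genes, so nothing is read from the pooled shares or from these. Median GC content was 45.8% against 47.9% in the other higher genes.

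Just outside the rule were 9 listed genes with a single read over both control libraries under the same filter, with 25 to 55 reads after transit (median 29). FP671120.4 drew 40 and 15 constriction reads and 0 and 1 control reads, SLC14A2, a urea transporter gene, had 23 and 6 with 0 and 1, and AC139495.3 had 1 and 35 with 1 and 0. Just inside, the lowest sums were 17 reads. The reads after transit of the genes on either side of the rule overlapped.

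Of the gene lists used, G-protein coupled receptors had 2 genes among the 45 (GPR82 and GPR18) and 4 in the table. Histones (4 in the table), zinc finger factors (7), ion channels and transporters (8), immunoglobulin and T cell receptor segments (1), immediate early genes (3) and interferon and NF-kB targets (1) had 0 among the 45. No marker of the mesenchymal, basal epithelial, leukocyte, erythroid, endothelial, germ line or neuronal lists was in the table, which lists only genes past the authors' threshold, so the levels of these markers were not analysed here.

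None of the 45 genes was listed for LM2 (97 genes) or MCF-10A (2680 genes), whose tables hold only genes past the authors' threshold. The same rule gave 9 genes in LM2 and 14 in MCF-10A, with 0 shared with the 45. In LM2, 5 of the 9 had reads in both constriction libraries and the sums ran from 15 to 31 reads. In MCF-10A, 0 of the 14 had reads in both: all 14 had reads only in constriction 1, with sums from 187 to 913. Whether the lines differ was not tested, since a gene absent from a table has no value here.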

How the data were processed

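RNA-seq of 12 libraries was analysed from the tables the authors deposited, 1 per cell line. Per the submitters' processing notes, reads were trimmed with fastp, aligned to GRCh38 with HISAT2 2.0.5, counted with featureCounts 1.5.0-p3 and compared with DESeq2 1.20.0. The authors deposited raw read counts per gene. They also deposited normalised counts, a signal obtained by dividing counts by 1 size factor per library, and FPKM, which the authors scaled by library total and gene length. The deposited p-values and fold changes were the authors' own comparison; their p-values were used only to recover the number of genes adjusted over (23976), and the fold changes were not used. The number of per-sample columns matched to no sample was 0.

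The members and gene lists were chosen with earlier results of these data known. Genes named individually were every protein-coding member, the 10 with the highest mean after transit, those with 0 reads in 1 constriction library, the 3 lowest and 3 highest ratios between constriction libraries, members within 100 kb of another member or overlapping another listed gene, and genes just outside the rule; other genes named were chosen after their values were seen.

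The whole MDA-MB-231 table was tested with edgeR 4.0.16 (R 4.3.3), quasi-likelihood, two-sided, with the authors' size factors, Benjamini-Hochberg adjustment over 23976 genes (unlisted genes at p = 1) and a threshold of 0.05. The procedure was tested on simulated data. DESeq2 1.42.0 and limma 3.58.1 were alternatives. The LM2 and MCF-10A fits were left out because no member was listed there. The study names control and constriction of a replicate number as 1 experiment, so numbers were taken to pair libraries; deviations of same-numbered libraries correlated at 0.0827 over 381 genes.

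All 381 identifiers, positions and biotypes matched GENCODE v29. Overlaps used gene spans and merged exons. The sequences of some small RNA genes are not reported here. Those of 3 small RNA genes were aligned with Biopython 1.88 (match 1, mismatch -1, gap opening -2, extension -0.5, end gaps 0). Intervals and floors cover counting error only, and the floors only that of the control libraries.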

Additional observations from a re-analysis of the deposited data

How the results depend on the processing

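The number of genes silent in control was 45, and 74 with at most 3 reads allowed in each control library. With at most 1 read it was 56 and with processed pseudogenes, LINC and -AS names kept 63. Leaving out 1 control library gave 49 to 58. The 41 genes with reads in both constriction libraries became 36 with at least 3 reads in each and 9 with at least 10. Of the 41 genes within or over another gene, 18 overlapped 1 on the same strand, and 39 were overlapped over at least 50% of their length.

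Over the whole table, edgeR's quasi-likelihood test called 1 gene, and 358 had an unadjusted p under 0.05. The replicate block (paired fit) called 86, DESeq2 9, TMM factors 15, a mean normalised count of at least 10 left 2, limma called 0 with either pseudocount (1 or 10; 245 and 261 at an unadjusted p under 0.05), and adjustment over the listed genes alone gave 354. Leaving out 1 library gave 0 to 8: 0 without constriction 1, 0 without constriction 2, 7 without control 1 and 8 without control 2. A fit without 1 library holds 1 library in a group, so only the other group gives its spread. The cause of the differences between these counts was not tested, except that adjusting over fewer genes raises the count by construction.

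For 21 named genes, FPKM in place of normalised counts moved the lower bound of the fold by 1.01 to 1.02 times. Without control 1 it was 1.24 times and without control 2 0.839 times as large. Leaving out 1 constriction library moved it between 0 and 2 times. With 17 to 45 reads per gene, depth limits every value, and differences of a few reads were not detectable.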

Other observations

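The 18 genes with 0 reads in both control libraries that the name and biotype filter left out had 17 to 45 reads after transit (median 21). Of these, 14 had reads in both constriction libraries and 13 were higher in constriction 1.

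Other listed MDA-MB-231 genes, named after their values were seen, lay in hosts of the 45 genes. AL022323.4, in KIAA1671 with AL022323.3, had 33 and 87 reads after transit against 7 and 7 in control. AC127496.1, in RPTOR with AC016245.1, had 34 and 28 against 5 and 8. AC017002.1, in MIR4435-2HG with MIR4435-2, had 39 and 57 against 4 and 18. LILRA6, in the span of RPS9 with AC245052.2, had 31 and 34 against 3 and 11. SHMT1P1, a processed pseudogene in ST3GAL3 with RF00026, had 31 and 1 against 0 and 1. The first 4 had more reads in each constriction library than in either control, while SHMT1P1 had 1 read in constriction 2 and 1 in control 2. Over the MDA-MB-231 table, both constriction libraries were above both control libraries in normalised counts for 236 of 381 genes (61.9%). The table lists only genes past the authors' threshold, so nothing further is read from these counts.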
